A study of Homo sapiens with 2 samples.

Results

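The mature microRNAs numbered miR-3115 to miR-3202, without miR-3120, were examined in A375, a widely used line of human melanoma cells. MicroRNAs (miRNAs) are small noncoding RNAs that lower the output of target messenger RNAs, and their registry numbers follow the order in which they were named. This stretch of numbers came largely from small RNA sequencing of melanoma. The deposited table does not record which entry came from which study, so that origin is background and was not checked here. Members were taken by name alone, as every listed mature name in which a whole number of that range directly follows "miR-". This gave 93 of the 1497 mature names in the table, on 95 of 1546 rows and from 74 of 1095 hairpins.

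Small RNA sequencing was done on 2 libraries that form 1 group, cells given DMSO, a solvent used as vehicle, for 48 h (1000000 cells per 10 cm dish, DMSO added after 24 h). No untreated or drug-treated sample was analysed here, so no comparison between conditions exists. The series' design text calls the replicates independent without saying from which cultures, so their spread may be partly technical. Replicate 1 held 10816826 and replicate 2 15428446 read assignments. Values are in RPM, read assignments scaled to 1000000 per library. One read was worth 0.0924 RPM in replicate 1 and 0.0648 RPM in replicate 2, so 1 RPM stood for 10.8 and 15.4 reads. Of 7 miRNAs linked to melanocytes or melanoma, 6 lay above 1000 RPM in both libraries, while miR-211-5p had 3 and 2 reads. Of blood markers, miR-451a had 1 read and 0 reads, miR-142-5p stood at 2.21 RPM and miR-486-5p at 186 RPM on average. The epithelial miR-200b-3p and miR-141-3p averaged 28.8 and 19.4 RPM. Their part in the results was not tested.

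A miRNA is cut from a hairpin precursor by Drosha and Dicer, and either arm of the hairpin (5p or 3p) can be loaded into an Argonaute protein. The loaded strand finds its targets mainly through its seed, bases 2 to 8. Late registry entries were often named from few reads, and many have no arm suffix because only one strand was known when they were named.

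The sequences of the 6 members that reached 10 RPM in each library are shown here because these 6 held nearly all reads of the block. They are RefSeq mature sequences (GRCh38.p14), written 5′ to 3′ with the seed in capitals.
miR-3180-3p: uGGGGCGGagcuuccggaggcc
miR-3180: uGGGGCGGagcuuccggag
miR-3180-5p: cUUCCAGAcgcuccgccccacgucg
miR-3176: aCUGGCCUgggacuaccgg
miR-3194-5p: gGCCAGCCaccaggagggcug
miR-3158-3p: aAGGGCUUccucucugcaggac
The 19 bases of miR-3180 are the first 19 bases of miR-3180-3p, so both carry the seed GGGGCGG, and a read of just these bases matches both names. The sources used here do not say whether such reads were divided between the names or counted under both. Among other names, miR-365a-3p and miR-365b-3p had equal counts, 871 and 1525 reads each. If reads were counted under both names, sums, shares and counts of members that include miR-3180 and miR-3180-3p hold some reads more than once. This was not tested. Sequences were found for 86 of the 93 members, with 84 distinct seeds. The other pair with a common seed, miR-3155a and miR-3155b (CAGGCUC), shares it with miR-484. MiR-484 stood at 433 RPM on average, against 0.111 RPM for miR-3155a and 0.0324 RPM for miR-3155b. Other scarce members also share a seed with an abundant name. MiR-3184-5p (0.0462 RPM) shares GAGGGGC with miR-423-5p (1767 RPM). MiR-3129-5p (0.190 RPM) shares CAGUAGU with miR-199a-3p and miR-199b-3p (843 and 833 RPM). MiR-3143, miR-3149, miR-3150a-3p, miR-3150a-5p, miR-3150b-3p, miR-3151-3p and miR-3151-5p were not matched.

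As a whole the block was scarce. Its members summed to 866 and 692 RPM in replicates 1 and 2, or 779 ± 123 RPM (mean ± SD, n = 2, the form used throughout). That was 0.112% and 0.0884% of the RPM once copies of a mature name were reduced to the highest copy. At 1 RPM or more in both libraries there were 17 of 93 members (18.3%), against 39.6% of all 1497 mature names. At 10 RPM or more in both there were 6 of 93 (6.45%), against 22.4% of all names. At 100 RPM or more in both there were 2 of 93, against 10.8% of all names, and none reached 1000 RPM, a level that 61 of all names reached. The median member had a mean of 0.282 RPM, and the median over all names was 0.588 RPM.

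The miR-3180 names led the block. MiR-3180-3p reached 364 RPM in the first replicate and 293 RPM in the other (328 ± 50.1 RPM). MiR-3180 stood at 210 and 168 RPM (189 ± 29.4 RPM). MiR-3180-5p stood at 92.8 and 80.3 RPM (86.6 ± 8.85 RPM). All 3 were higher in replicate 1, and their ranges did not overlap one another. Together they made up 77.6% ± 0.936 of the RPM of the block, and miR-3180-3p alone 42.1% ± 0.235. Any reads counted under both miR-3180 and miR-3180-3p would make the joint share too high. For every read of miR-3180-3p there were 0.576 reads of miR-3180 in replicate 1 and 0.574 in replicate 2. The quotient of these ratios was 1.004, with a 95% interval of 0.935 to 1.08 (Fisher's exact test of the reads, two-sided, p = 0.928 after Benjamini-Hochberg adjustment over both ratios). Each miR-3180-5p read came with 3.92 and 3.64 reads of miR-3180-3p, a quotient of 1.07 with an interval of 0.979 to 1.18 (adjusted p = 0.267 in the same exact test). Both intervals came from a normal approximation on the log of the quotient, and only the p-values from the exact test. These 2 ratios were chosen after the values were seen. The first test takes the reads of miR-3180 and miR-3180-3p as separate. If reads of their shared bases were counted under both names, a steady ratio could come from that counting. The test therefore cannot show that the 2 miRNAs kept their ratio. Here and in every Fisher's exact test on reads, PCR reads were counted as if independent, so the p-values hold for counting error between 2 libraries, not 2 conditions, and are too small where replicates vary by more.

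All 5 miR-3180 loci lie on chromosome 16, in GRCh38 by RefSeq and GENCODE 29. MIR3180-1 (14911220 to 14911313, plus strand), MIR3180-2 (16309879 to 16309966, plus) and MIR3180-3 (18402178 to 18402271, minus) each overlap an exon of a long noncoding RNA on the opposite strand. So does MIR3180-4 (15154850 to 15155002, minus), while MIR3180-5 (2135977 to 2136129, minus) overlaps no other annotated gene. The last 2 are annotated as hairpins of 153 bases with miR-3180 on their 5′ side, against 94, 88 and 94 bases for the others. MIR3180-2 and MIR3180-3 carry both miR-3180-3p and miR-3180-5p. MIR3180-1 was matched to miR-3180-5p alone in RefSeq, although mir-3180-1 is listed with both arms. The table lists only mir-3180-1 and mir-3180-4, so reads were not told apart by locus. Of 15 members with more than one RefSeq locus, 13 had a single row in the table.

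The next members came from single or paired loci. MiR-3176 stood at 57.1 and 42.8 RPM (50.0 ± 10.1 RPM), and MIR3176 lies in an intron of CAPN15 on chromosome 16 (543277 to 543366, plus strand). MiR-3194-5p stood at 65.7 and 31.7 RPM (48.7 ± 24.1 RPM). MIR3194 lies in an intron of NFATC2, a transcription factor gene of T cell activation, on chromosome 20 (51452905 to 51452977, minus strand). The order of these members was not resolved, since miR-3194-5p was the higher in replicate 1 and miR-3176 in replicate 2. MiR-3158-3p stood at 21.2 and 19.7 RPM (20.4 ± 1.04 RPM), below both in each library. MIR3158-1 lies in an intron of DPCD on chromosome 10 (101601417 to 101601497, plus strand), and MIR3158-2 covers the same bases on the minus strand.

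A gap followed. The 6 leading members held 92.7% ± 1.19 of the RPM of the block, and the other 87 summed to 56.0 and 56.4 RPM. No member lay between 6.61 and 19.7 RPM in any library, so the count at 10 RPM did not turn on a borderline member. For all 6, the 95% Poisson interval of the reads lay above 10 RPM in both libraries, and for the other 87 it lay below 10 RPM in both. Of all 1497 names, 321 lay above and 1118 below in this way, and 58 did neither. These intervals cover counting error only, since reads made by PCR are not independent molecules.

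**Figure D1:**
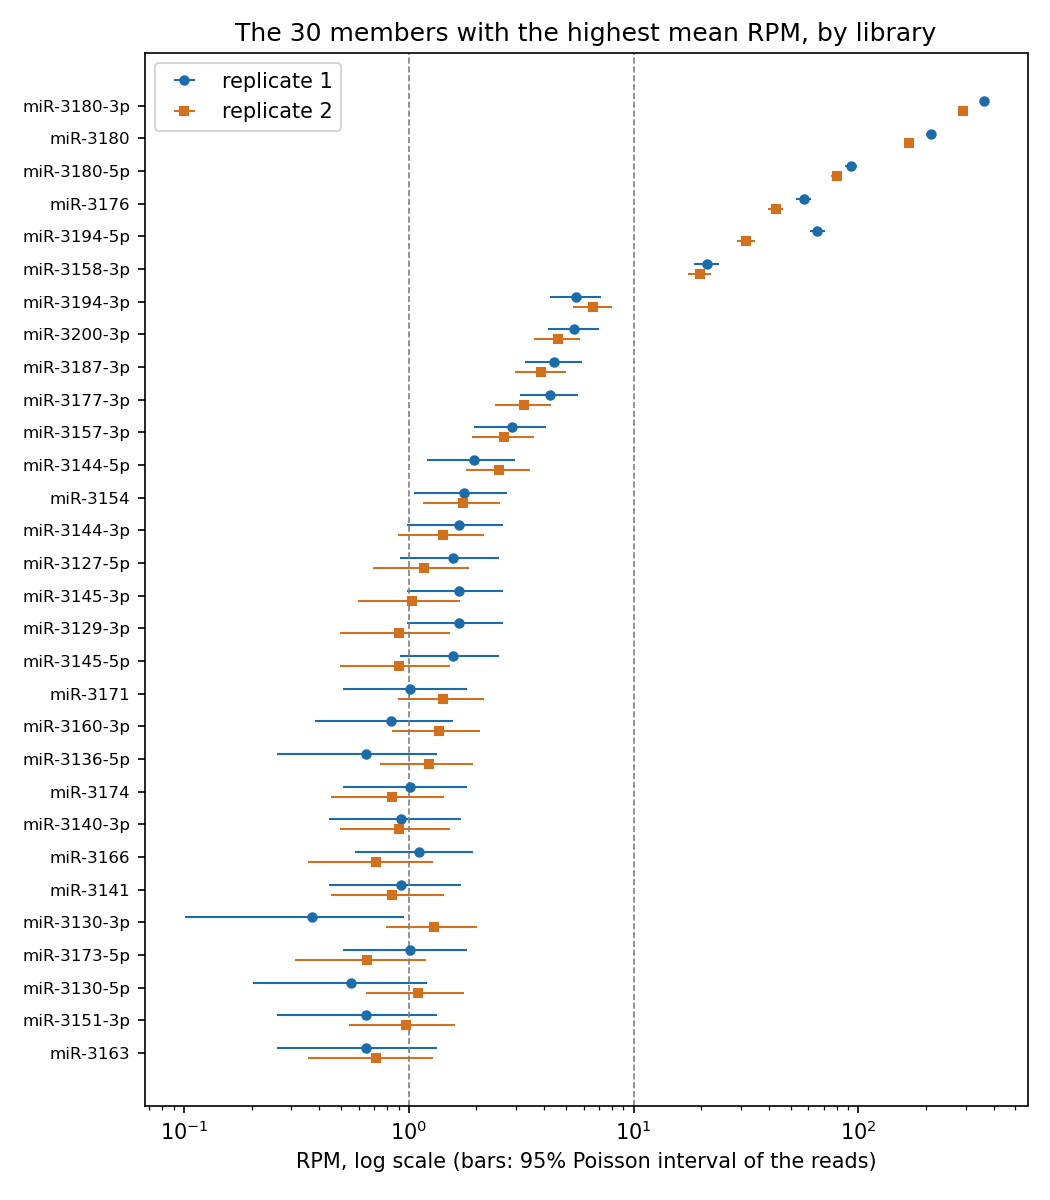
RPM of the 30 members with the highest mean, on a log axis, for replicate 1 (circles) and replicate 2 (squares), with 95% Poisson intervals of the reads as bars and dashed lines at 1 and 10 RPM. The 6 leading members lie at 19.7 RPM or more in both libraries, clear of the next at 6.61 RPM or less, while many intervals lower down cross 1 RPM.

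Between 1 and 10 RPM in both libraries there were 11 members. Among the first 4 of them, each gap between neighbouring means was smaller than the sum of their SDs. MiR-3194-3p, from the other arm of mir-3194, stood at 5.55 and 6.61 RPM (6.08 ± 0.753 RPM). MiR-3200-3p, from an intron of OSBP2, stood at 5.45 and 4.60 RPM (5.03 ± 0.603 RPM). MiR-3187-3p stood at 4.44 and 3.89 RPM (4.16 ± 0.388 RPM), from a hairpin that lies opposite an exon of PLPPR3. Unlike the other pair, miR-3194-3p was higher in replicate 2.

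MiR-3177-3p, from an intron of MAPK8IP3, stood at 4.25 and 3.24 RPM (3.75 ± 0.715 RPM). MiR-3157-3p, from an intron of ENTPD1-AS1, stood at 2.87 and 2.66 RPM. The arms of mir-3144, a hairpin outside other annotated genes, gave 1.94 and 2.53 RPM for miR-3144-5p and 1.66 and 1.43 RPM for miR-3144-3p. MiR-3154, whose hairpin lies opposite an intron of the dynamin gene DNM1, stood at 1.76 and 1.75 RPM. These values were close between the libraries, and none of these members passed the test between libraries.

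At the limit of 1 RPM the calls rested on few reads. Just above it in the lower of their libraries were miR-3127-5p (17 and 18 reads), miR-3145-3p (18 and 16 reads) and miR-3171 (11 and 22 reads). Just below it were miR-3129-3p (18 and 14 reads), miR-3145-5p (17 and 14 reads) and miR-3140-3p (10 and 14 reads). The Poisson intervals of all 6 crossed 1 RPM in both libraries. MiR-3160-3p, with 9 and 21 reads, had a mean of 1.10 RPM but was under 1 RPM in replicate 1. Being over or under 1 RPM was thus within counting error for part of the members. The interval (a count added after the values were seen) lay above 1 RPM in both libraries for 13 members, and 35.1% of all names met that condition. It lay below 1 RPM in both for 49 members, against 40.9% of all names. For the remaining 31 members it did neither, as for 358 of all 1497 names.

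The other members were near the limit of detection. Of the 93, 51 had fewer than 10 reads in both libraries together, against 42% of all names. A single read was all there was for 13 of the 93, near the 12.6% of all names. Reads were present in both libraries for 69 members (74.2%, against 77.2% of all names), in replicate 1 only for 9 and in replicate 2 only for 15. Of all 1497 names, 145 had reads in replicate 1 only and 196 in replicate 2 only. The most reads among the one-sided members were 3 for miR-3118 in replicate 1 and 6 for miR-3121-3p in replicate 2. A count of 0 allows up to 3 reads, 0.277 RPM in replicate 1 and 0.194 RPM in replicate 2, as a one-sided limit. The two-sided 95% Poisson intervals for 0 reads end at 0.341 and 0.239 RPM, so absence was not shown for any of them. RefSeq holds 25 further mature names in this number range that have no row in the table. Every listed name had a read in at least 1 library, so the shares above are shares of listed names.

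Arms were compared next. By name, 26 members were 3p, 24 were 5p and 43 had no suffix. At 1 RPM or more in both libraries were 9 of the 3p names, 4 of the 5p names and 4 of the names without suffix. The 3p names held 48.8% of the RPM of the block, the 5p names 18.8% and those without suffix 32.4%. Most of each share came from a few names. These were miR-3180-3p (42.1%), miR-3180-5p (11.1%) with miR-3194-5p (6.25%), and miR-3180 (24.2%). By place in the RefSeq hairpin, 36 members lay on the 3′ side and 43 on the 5′ side, of which 11 and 5 reached 1 RPM in each library. The other 14 could not be placed. These counts by arm were not made over all names, so no trait of the block is read from them. Among those on the 5′ side was miR-3180, with 24.2% of the RPM of the block. Its bases are also the start of miR-3180-3p, so its reads do not settle the side.

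Both arms were listed for 21 member hairpins, and in 15 the means of the arms added up to at least 1 RPM. On the log2(RPM + 1) scale, 6 of these 15 favoured the 3p arm by over 2-fold in each library, 1 favoured the 5p arm and 8 showed neither. With a pseudocount of 0.1 RPM in place of 1 RPM the counts were 9 and 3, and with 10 RPM they were 2 and 1. Adding 1 RPM draws the ratio of a scarce hairpin toward even, so showing neither does not mean even arms. Mir-3129, counted as neither, had 18 and 14 reads of the 3p arm against 2 and 3 of the 5p arm. Mir-3145, also neither, was near even in reads. Over all 325 hairpins with both arms listed at that level, 32% favoured the 3p arm and 42.5% the 5p arm, with 1 RPM added. The median absolute log2 ratio was 0.99 over the 15 and 2.53 over the 325. Levels were not matched between these sets. The 6 were mir-3180-1, mir-3158-1, mir-3200, mir-3187, mir-3177 and mir-3157. MiR-3158-3p had 229 and 304 reads against 2 reads and 1 read of miR-3158-5p. MiR-3200-3p had 59 and 71 reads against 1 read of miR-3200-5p in each library. In mir-3180-1 the log2 ratio of 5p over 3p was -1.91 ± 0.07.

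Mir-3194 was the hairpin that favoured the 5p arm, and its ratio differed between the libraries. MiR-3194-5p had 711 and 489 reads, and miR-3194-3p 60 and 102 reads. The 5p arm was thus 11.8-fold higher in replicate 1 and 4.79-fold higher in replicate 2, a 2.46-fold shift (adjusted p = 7.2e-07 by a Fisher's exact test of the reads of both arms, two-sided, Benjamini-Hochberg). This test, chosen after the values were seen, was run on all 254 hairpins with 10 or more reads of each arm, and 5.51% of them passed it with a shift over 2-fold. Of 9 member hairpins tested, mir-3194 was the one that passed. By size of shift it was number 26 of the 254. Mir-3145 was even in both libraries, with 17 and 14 reads of the 5p arm against 18 and 16 of the 3p arm.

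**Figure D2:**
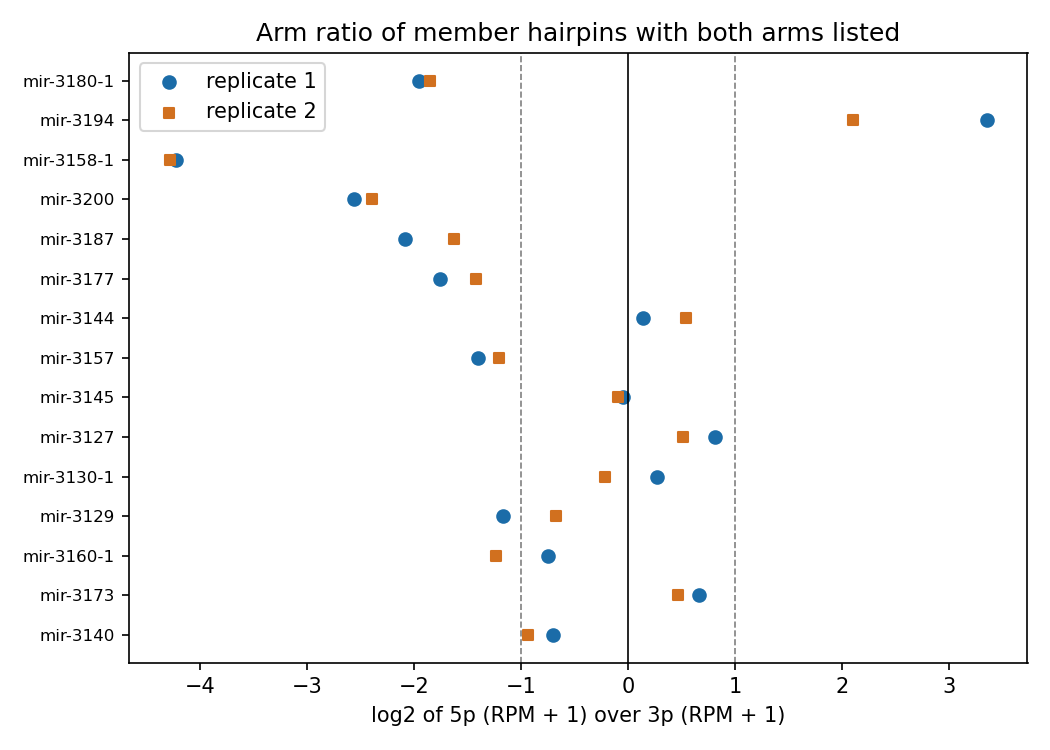
Log2 ratio of 5p over 3p, each as RPM + 1, for the 15 member hairpins in which both arms were listed and added up to at least 1 RPM on average, in replicate 1 (circles) and replicate 2 (squares), with dashed lines at 2-fold. Mir-3194 lies to the right at 3.35 and 2.10, and 6 hairpins lie beyond the left line in both libraries.

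Several member hairpins face another annotated miRNA hairpin on the opposite DNA strand, most often a second hairpin of the same name. Of 62 member hairpins matched to RefSeq, 13 overlapped a RefSeq miRNA on the other strand (21.0%), against 41 of 855 matched hairpins of the table (4.80%), a count made after the values were seen. In mir-3119, mir-3130, mir-3158, mir-3160, mir-3199 and mir-3202, the partner was the second annotated hairpin of the same name, with the same mature sequence. Mir-3155a and mir-3155b face each other. Only mir-3184 (with mir-423) and mir-3190 and mir-3191 (with each other) face a hairpin of another number. Pairs with both hairpins among the members were counted from each side. The mature sequences of such pairs can be exact reverse complements. The partner with the most reads was that of mir-3184, which lies opposite mir-423 on chromosome 17 (30117086 to 30117160, minus strand). The stretch of each member that is complementary to the mir-423 arm is in capitals, and that arm follows in lower case.
miR-3184-3p: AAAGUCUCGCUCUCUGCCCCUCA
miR-423-5p: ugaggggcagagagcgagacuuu
miR-3184-5p: UGAGGGGCCUCAGACCGAGCUuuu
miR-423-3p: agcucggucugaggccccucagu
MiR-423-5p had 21532 and 23802 reads, and miR-3184-3p, its complement over all 23 bases, had 1 read in each library. MiR-423-3p had 52130 and 51073 reads, and miR-3184-5p, complementary to it over 21 bases, had 1 read and 0 reads. The complement of an abundant miRNA was thus almost without reads, in both libraries.

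In 4 other hairpins the arms of the same hairpin are reverse complements of each other over a long stretch, 20 bases in mir-3130, mir-3158 and mir-3160 and 15 bases in mir-3145. Their levels differed widely. In mir-3158 and mir-3160 the 3p arm held nearly all reads, 9 and 21 against 1 and 0 for mir-3160. In mir-3145 and mir-3130 the arms were near each other. MiR-3130-3p had 4 and 20 reads, and miR-3130-5p had 6 and 17 at mir-3130-2 and 7 and 15 at mir-3130-1, which lie on opposite strands in FASTKD2. MiR-3119 was the other member with rows for both of its hairpins, 2 and 2 reads at mir-3119-2 and 1 and 0 at mir-3119-1. MiR-3119 and miR-3130-5p each have the same mature sequence at both hairpins, so these reads do not tell the loci apart.

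The libraries were compared as the only measure of error. For the 20 members averaging at least 1 RPM, the absolute difference on the log2(RPM + 1) scale had a median of 0.26, and for the 633 names at that level a median of 0.25. Of these 20, 16 were higher in replicate 1, against 372 of the 633. The whole table was shifted the same way, as its names at 10 RPM or more had a median ratio of 1.07 (0.10 on the log2 scale). With that shift removed, 14 of the 20 were higher in replicate 1.

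Fisher's exact test (two-sided, reads, Benjamini-Hochberg adjustment over 869 names) was applied to the 42 members with 10 or more reads in both libraries together. Of these, 1 passed with an adjusted p under 0.05 and over 2-fold, against 4.6% of all names tested. This was miR-3194-5p, 2.07-fold higher in replicate 1 (adjusted p = 4.7e-35, Fisher's exact test). After scaling by the median ratio it was 1.93-fold higher and no longer passed the fold limit. MiR-3130-3p, at 0.313 of its replicate 2 level in replicate 1 (adjusted p = 0.057, Fisher's exact test), then passed instead with 0.291 and an adjusted p of 0.037 in the exact test. Without a fold limit, miR-3180-3p (1.24-fold), miR-3180 (1.25-fold), miR-3180-5p (1.16-fold) and miR-3176 (1.33-fold) also passed, all higher in replicate 1. That made 5 of 42 members, against 34.5% of all names tested at this setting. Passing without a fold limit depends on the number of reads, and these 5 had the most reads of the 42.

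**Figure D3:**
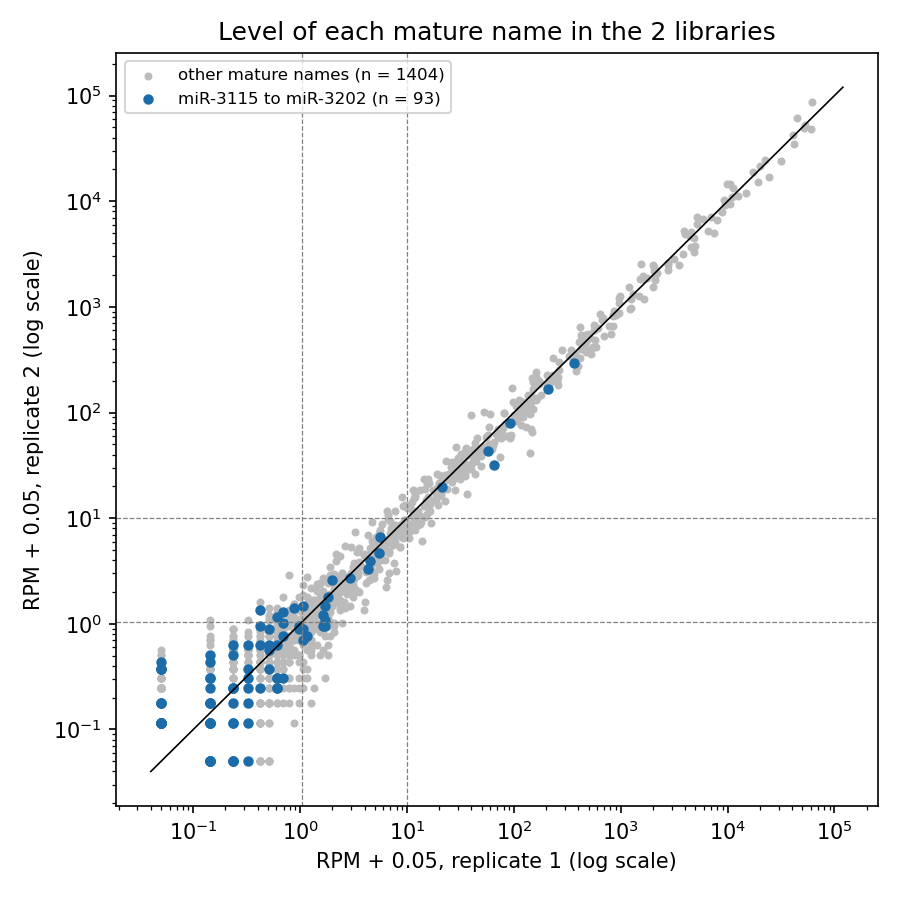
RPM + 0.05 of each mature name in replicate 1 (horizontal) and replicate 2 (vertical), both on log axes, for the 93 members (blue) and the other 1404 names (grey), with the line of equal values and dashed lines at 1 and 10 RPM. Members follow the same line as other names, 6 of them above 10 RPM in both libraries, and the rest crowd the low corner where single reads form steps.

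Set beside other stretches of the registry, the block lay between earlier and later numbers. At 1 RPM or more in both libraries were 62.8% of the 683 listed names from miR-1 to miR-999, 39.8% of the 133 from miR-1000 to miR-3114, 18.3% of the 93 members and 13.6% of the 568 from miR-3203 upward. At 10 RPM or more the shares were 40.4%, 15.04%, 6.45% and 2.82%. Of the 178 names from miR-6720 to miR-6895, many of them predicted mirtrons, 5.06% were at 1 RPM or more in both and none at 10 RPM. The median means of the 4 ranges were 4.44, 0.629, 0.282 and 0.185 RPM in the order of the numbers. These are descriptions of listed names, with no test. MiR-3120, whose hairpin is known to lie opposite mir-214 and which was left out of the block, had 6 and 19 reads of the 3p arm and 1 read of the 5p arm in each library.

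**Figure D4:**
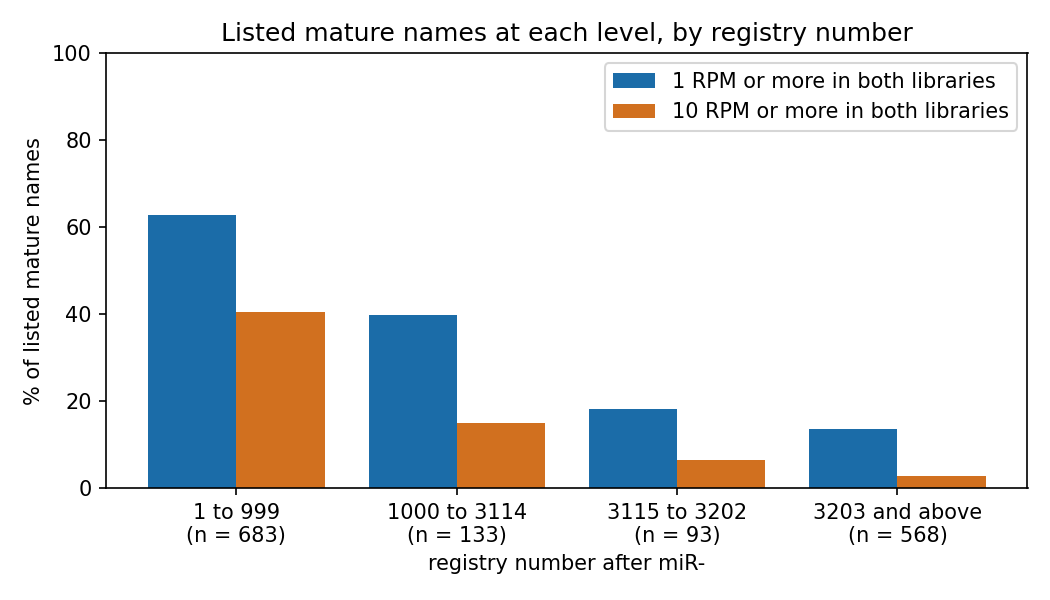
Percentage of listed mature names at 1 RPM or more and at 10 RPM or more in both libraries, for 4 ranges of the registry number. The bars step down from 62.8% and 40.4% for miR-1 to miR-999 to 13.6% and 2.82% for miR-3203 upward, with miR-3115 to miR-3202 at 18.3% and 6.45%.

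Most member hairpins lie within other genes. Of the 62 matched, all with the same position in RefSeq and GENCODE 29, 39 lay in an intron of a gene on the same strand, 4 overlapped an exon on the same strand, 11 lay opposite a gene only and 8 overlapped no other gene. Hosts of members at 1 RPM or more included CNNM4 (mir-3127) and NHSL1 (mir-3145). Lower members lay in introns of well-known genes, here named after their values were seen. MiR-3173-5p, from an intron of DICER1, the gene of the enzyme that cuts hairpins, had 11 and 10 reads. MiR-3140-3p lies in FBXW7, a ubiquitin ligase gene, and miR-3128, with 0 and 5 reads, in NFE2L2, a regulator of the oxidative stress response.

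The leading members were rich in G and C. Over the 6 at 10 RPM or more the median GC content of the mature sequence was 72.8% (59.1% to 77.3%). It was 54.5% over the 11 from 1 to under 10 RPM and 54.2% over 69 matched members below that. Over all 300 matched names at 10 RPM or more it was 50.0%. Of the 6, 3 are miR-3180 names, and miR-3180 and miR-3180-3p share sequence, so these are not independent cases. Across the 86 matched members, which share libraries and depth, Spearman's rho between GC content and mean RPM was 0.10, and across 1317 matched names it was -0.18, both weak. The members at 1 RPM or more were 19 to 25 bases long with a median of 22, as over all matched names.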

How the data were processed

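Total RNA of A375 cells (miRNeasy Mini kit, per the labels' protocols) was made into small RNA libraries. CASAVA 1.8 and cutadapt 1.2.1 are named in the submitters' processing notes. The sources used here do not give the aligner, the annotation release, the build or how reads matching several hairpins were counted. Adapter ligation favours some ends over others, so levels of different miRNAs are compared only roughly.

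The deposited values are RPM, written with decimal commas, and each of the authors' columns sums to 1000000 over all rows. Dividing a column by its smallest nonzero value gave whole reads throughout (100% of values within 0.01 reads), and tests used these reads. Both columns were matched by the sample descriptions, and 0 other value columns were present. Copies of a mature name were reduced to the highest copy, which left 77.6% and 78.3% of the total for shares.

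The members and lists were chosen with earlier results of these data known. Named members were the 20 with the highest mean, those nearest 1 and 10 RPM, those called between libraries, arms of hairpins at 5 RPM or more, and those with several rows, a reverse complement or a shared seed. Fisher's exact test used SciPy 1.17.1, with 0.5 reads added for folds. It was also run on simulated Poisson counts, with changes planted only in names at 10 RPM or more. That run did not cover changes in scarce names or variation between replicates beyond counting error. Figures used matplotlib 3.10.9. Sequences came from RefSeq (GRCh38.p14), and genes from GENCODE 29. Alternatives were other pseudocounts, filters, scaling, fold limits, summed copies and leaving out each replicate.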

Additional observations from a re-analysis of the deposited data

How the results depend on the processing

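Of 50 alternative values, 36 stayed on the same side of the test, within 1.5 times for counts, or within the spread between libraries for levels (within 10% for the median difference). The count at 1 RPM ranged from 16 to 23 and the count at 10 RPM was 6 under each of its alternatives. With copies summed, the share of RPM was 0.0780%. The median RPM of members was 0.490 for those above 0 in both libraries, and 0.277 to 0.324 with a replicate left out. The median absolute log2 difference was 0.34 with a pseudocount of 0.1 RPM, 0.081 with 10 RPM, 0.31 at a mean of 10 RPM or more, 0.18 with no filter and 0.22 after median ratio scaling. With no fold limit, 5 of 42 members differed between libraries in place of 1, against 300 of all 869 names tested. At that setting passing depends on the number of reads. After scaling the count was still 1, but of another member: miR-3194-5p no longer passed (0.95 on the log2 scale) and miR-3130-3p did (-1.78). The adjusted p of miR-3194-5p ranged from 4.7e-35 to 1.4e-28 over its alternatives and that of miR-3130-3p from 0.037 to 0.097. Hairpins favouring the 5p arm numbered 3 with a pseudocount of 0.1 RPM. Those favouring the 3p arm numbered 2 with 10 RPM and 3 at a summed mean of 5 RPM or more. No paired analysis was possible because there is 1 group. With 2 libraries, no sample could be tested as an outlier, and below about 1 RPM counting error limits every value.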
